A study of Mus musculus with 24 samples.

Results

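Malat1, Neat1, Meg3, Rian, Mirg and Kcnq1ot1 are 6 long noncoding RNAs that act in or are retained in the nucleus. They were taken from the gene count table by their symbols. Each symbol matched 1 of the 24421 genes listed, and all 6 passed the filter on low counts that left 13761 genes for testing. They were chosen by name with their earlier measured levels by group and by library in view, and which value led to each name is not recorded. Their levels, fold changes, calls and p-values in the same libraries are therefore a description and no independent evidence.

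Malat1 is a very abundant nuclear RNA that gathers in nuclear speckles, the stores of splicing factors, and Neat1 is the RNA scaffold of paraspeckles, nuclear bodies that hold RNA-binding proteins and retained transcripts. Meg3, Rian and Mirg lie in a row in the imprinted Dlk1-Dio3 domain and are expressed from the maternal chromosome. Rian hosts small nucleolar RNAs (snoRNAs), and all 3 loci hold microRNAs (miRNAs). Meg3 is known as a transcript of pancreatic beta cells. Kcnq1ot1 is read antisense from inside Kcnq1 on the paternal chromosome and silences genes of that imprinted domain in cis.

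The libraries were made from polyadenylated RNA of MIN6, an insulin-secreting mouse insulinoma line. Cells carried an EIF2A-GFP plasmid or a GFP plasmid as its control, and were given 1 µM thapsigargin for 1 or 3 h or DMSO, the vehicle, here called 0 h. Thapsigargin stops calcium uptake by the endoplasmic reticulum (ER), which leads to ER stress, and EIF2A is a translation initiation factor distinct from the eIF2 complex. The 6 groups are EIF2A at 0, 1 and 3 h and GFP at 0, 1 and 3 h, with 4 libraries each. No label states that the 4 replicates of a group came from separate cultures, so p-values measure only the spread between these libraries, which may be technical.

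Eif2a, the gene on the plasmid, went against the labels in replicate 1 (suffix 2 in the column names of the table). Its level in CPM, counts scaled to a common library total, was 134 to 209 in the EIF2A libraries of replicates 2 to 4, against 77.7 to 102 in the GFP libraries of those replicates. In replicate 1 it was 80.2 to 104 CPM in the libraries labelled EIF2A and 269 to 361 CPM in the libraries labelled GFP. The sources used here do not say whether reads from the plasmid were counted. The labels were kept, and comparisons of the constructs are given over all 4 replicates and without replicate 1. Library totals ran from 10522758 to 22222701 counts. The 10 beta cell markers, led by the insulin and amylin genes, summed to 56596 to 123547 CPM in the EIF2A libraries and 44818 to 85426 CPM in the GFP libraries of replicates 2 to 4, and to 63203 to 95443 and 66163 to 110612 CPM in the EIF2A and GFP libraries of replicate 1. A higher abundance means a larger share of the library's counts. Fewer cells and less RNA per cell cannot be told apart in such bulk samples.

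Malat1 and Neat1 stand next to each other on the minus strand of chromosome 19 in GRCm38, the build also called mm10. GENCODE M21 places Malat1 (ENSMUSG00000092341.3) at chr19:5795690-5802672 and Neat1 (ENSMUSG00000092274.3) at chr19:5824708-5845478, and the longest transcript of each is 1 exon, of 6983 and 20771 bases. The mature 3′ end of Malat1 and that of the long Neat1 isoform carry no added poly(A) tail. Each is cut by RNase P and ends in an A-rich tract that folds back on U-rich tracts as a triple helix. These ends are shown because the libraries were selected for polyadenylated RNA. Capitals mark the 3 runs of 13, 16 and 11 bases that both RNAs share, written 5′ to 3′ on the RNA's own strand. The Malat1 segment stops 292 bases before the annotated transcript end, and the Neat1 segment is the end of the 20771-base transcript.
Malat1-201, chr19:5795982-5796070, minus strand: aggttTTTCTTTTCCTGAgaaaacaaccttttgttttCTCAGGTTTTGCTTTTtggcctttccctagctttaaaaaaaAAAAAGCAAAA
Neat1-201, chr19:5824708-5824802, minus strand: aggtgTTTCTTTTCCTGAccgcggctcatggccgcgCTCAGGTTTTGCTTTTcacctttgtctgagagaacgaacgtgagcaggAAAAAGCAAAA
Among 13257 tested genes with an annotated transcript, 10 hold the 13-base run (0.0754%), 2 the 16-base run (0.0151%) and 152 the 11-base run (1.15%). Malat1 and Neat1 are the 2 with the 16-base run. A shorter Neat1 isoform ends at a poly(A) site instead, and its last 60 bases hold AATAAA, a known poly(A) signal, in capitals.
Neat1-202, chr19:5842307-5842366, minus strand: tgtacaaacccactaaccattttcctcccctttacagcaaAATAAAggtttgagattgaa

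Kcnq1ot1 is the longest member, and it holds the most A runs, a count that is not scaled by length. It is a 1-exon transcript of 93092 bases (ENSMUSG00000101609.2, chr7:143203458-143296549, minus strand), with 40.3% GC and 8 runs of 12 or more A. In total exon length it ranks behind 1 of the 13257 genes, and its longest A run has 41 bases. A run of 12 A is present in 11.4% of those genes, whose median total exon length is 4390 bases. Meg3 holds 3 such runs, Malat1 and Rian 1 each, and Neat1 and Mirg none. GC content was 42.5% in Malat1, 47.3% in Neat1, 49.2% in Meg3, 35.8% in Rian and 51.9% in Mirg, against a median of 49.9% over the genes.

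Meg3 (ENSMUSG00000021268.17, chr12:109541001-109571726), Rian (ENSMUSG00000097451.10, chr12:109603940-109661716) and Mirg (ENSMUSG00000097391.8, chr12:109729764-109749460) follow each other on the plus strand of chromosome 12. RefSeq lists 35 mature miRNAs inside the 3 loci, all on the host's strand, with 3 in Meg3, 6 in Rian and 26 in Mirg. They carry 34 different seeds, the bases 2 to 8 shown in capitals below, and the 1 shared seed, GGUUGCC, belongs to a pair from Mirg. That pair is shown with 1 miRNA from each of the other hosts. The miRNAs were not measured here.
mmu-miR-453, Mirg: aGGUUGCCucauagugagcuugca
mmu-miR-496a-5p, Mirg: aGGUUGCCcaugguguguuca
mmu-miR-370-3p, Rian: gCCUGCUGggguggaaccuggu
mmu-miR-770-5p, Meg3: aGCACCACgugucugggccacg

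Promoter windows, from 250 bases before to 50 after the start in RefSeq on GRCm38.p6, are shown for Meg3 and Kcnq1ot1, whose windows hold letters known from stress and cAMP responses. Both RNAs were lower after thapsigargin below, as were Malat1, Rian and Mirg. Whether these letters have a part in that was not tested. Capitals mark the cAMP response element TGACGTCA, CCAAT and TATAAA in Meg3, and CCAAT in Kcnq1ot1. The unfolded protein response element TGACGTGG of the Kcnq1ot1 window, on the other strand at bases 206 to 213, is left in lower case.
Meg3, chr12:109540746-109541045, plus strand: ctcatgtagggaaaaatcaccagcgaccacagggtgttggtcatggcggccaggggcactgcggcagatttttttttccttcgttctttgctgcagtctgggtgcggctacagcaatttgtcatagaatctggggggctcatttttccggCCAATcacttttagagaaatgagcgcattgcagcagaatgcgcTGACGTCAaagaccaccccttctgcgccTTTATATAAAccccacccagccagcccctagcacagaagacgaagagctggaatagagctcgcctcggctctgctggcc
Kcnq1ot1, chr7:143296498-143296797, minus strand: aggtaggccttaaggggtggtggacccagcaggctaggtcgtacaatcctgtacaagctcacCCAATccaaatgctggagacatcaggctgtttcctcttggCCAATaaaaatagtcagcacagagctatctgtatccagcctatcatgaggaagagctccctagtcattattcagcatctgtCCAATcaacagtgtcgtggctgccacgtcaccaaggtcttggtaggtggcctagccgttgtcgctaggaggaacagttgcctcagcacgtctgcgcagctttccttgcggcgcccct
Both strands of 32851 promoter windows were searched for the cAMP response element TGACGTCA, the promoter box CCAAT, the TATA box with the letters TATAAA, the unfolded protein response element TGACGTGG, the ATF4 composite element TGATGCAA, the AP-1 site TGANTCA and the ER stress element. In Meg3, TGACGTCA ended 50 bases before the start (present in 1.79% of windows), CCAAT 96 bases before it (37.4%), and TATAAA lay on both strands, 20 and 24 bases before it (2 or more matches in 2.36% of windows), the 2 matches overlapping. In Kcnq1ot1, 3 copies of CCAAT ended 184, 144 and 63 bases before the start (3 or more copies in 3.37% of windows), and TGACGTGG lay on the other strand 38 bases before it (0.676%). Neither window held TGATGCAA (0.895% of windows), TGANTCA (7.81%) or the ER stress element (0.119%). The Malat1 and Rian windows and a second Meg3 window held none of the 7 motifs, the Mirg window held 1 CCAAT, and Neat1 is named only.

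Malat1 had the highest level of the 6 and the widest range between libraries. It took 0.0447% to 0.565% of a library's counts, a 14.6-fold range in CPM, and ranked at position 19 of the 13761 genes by mean CPM. Among replicates 2 to 4 its abundance was several-fold higher in EIF2A libraries than in GFP libraries at each time, and in both constructs it was lower at 3 h than at 0 h. Values are given in the order of replicates 1 to 4. At 0 h Malat1 stood at 822, 5994, 5761 and 4338 CPM in the EIF2A libraries and at 1401, 1069, 963 and 856 CPM in the GFP libraries. At 1 h it stood at 668, 5458, 5146 and 4474 CPM in EIF2A and 921, 947, 728 and 695 CPM in GFP. At 3 h the values were 541, 2878, 2445 and 1995 CPM in EIF2A and 659, 595, 555 and 409.9 CPM in GFP. In replicate 1 the library labelled EIF2A was the lower of the pair at each time, as for Eif2a, so the constructs overlapped over all 4 replicates and were separate among replicates 2 to 4.

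Neat1 varied least. Its range over the 24 libraries was 2.502-fold, and it ranked at position 44 by mean CPM. At 0 h it stood at 803, 1133, 1116 and 941 CPM in EIF2A and 627, 1360.1, 1269 and 1257 CPM in GFP. At 1 h it stood at 920.2, 1288, 1246 and 1028 CPM in EIF2A and 605, 1514, 1478 and 1250.1 CPM in GFP. At 3 h the values were 1029, 1226, 1226 and 993 CPM in EIF2A and 769.5, 1304, 1362 and 1109 CPM in GFP. The replicate 1 library was the lowest of its group in 5 of the 6 groups, and no group stood apart at a later time from its own 0 h libraries. The count of Neat1 sums its short and long isoforms, which share their 5′ part.

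Kcnq1ot1 followed the order of Malat1 at a level far below it. Its 0 h levels were 13.6, 70.1, 66.8 and 75.9 CPM in EIF2A and 17.7, 20.1, 16.3 and 17.1 CPM in GFP. At 1 h it stood at 11.5, 59.4, 56.3 and 73.0 CPM in EIF2A and 13.9, 15.9, 15.4 and 17.1 CPM in GFP. At 3 h the values were 11.4, 41.2, 36.2 and 36.7 CPM in EIF2A and 11.2, 12.4, 13.4 and 10.99 CPM in GFP. The 9 EIF2A libraries of replicates 2 to 4 were the 9 highest of all 24, and the 3 libraries labelled EIF2A of replicate 1 lay within the range of the GFP libraries. Since no source used here states the strand setting of the counting, part of the Kcnq1ot1 count could be reads of Kcnq1, which runs through it on the other strand, and its value is uncertain in that respect.

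**Figure D1:**
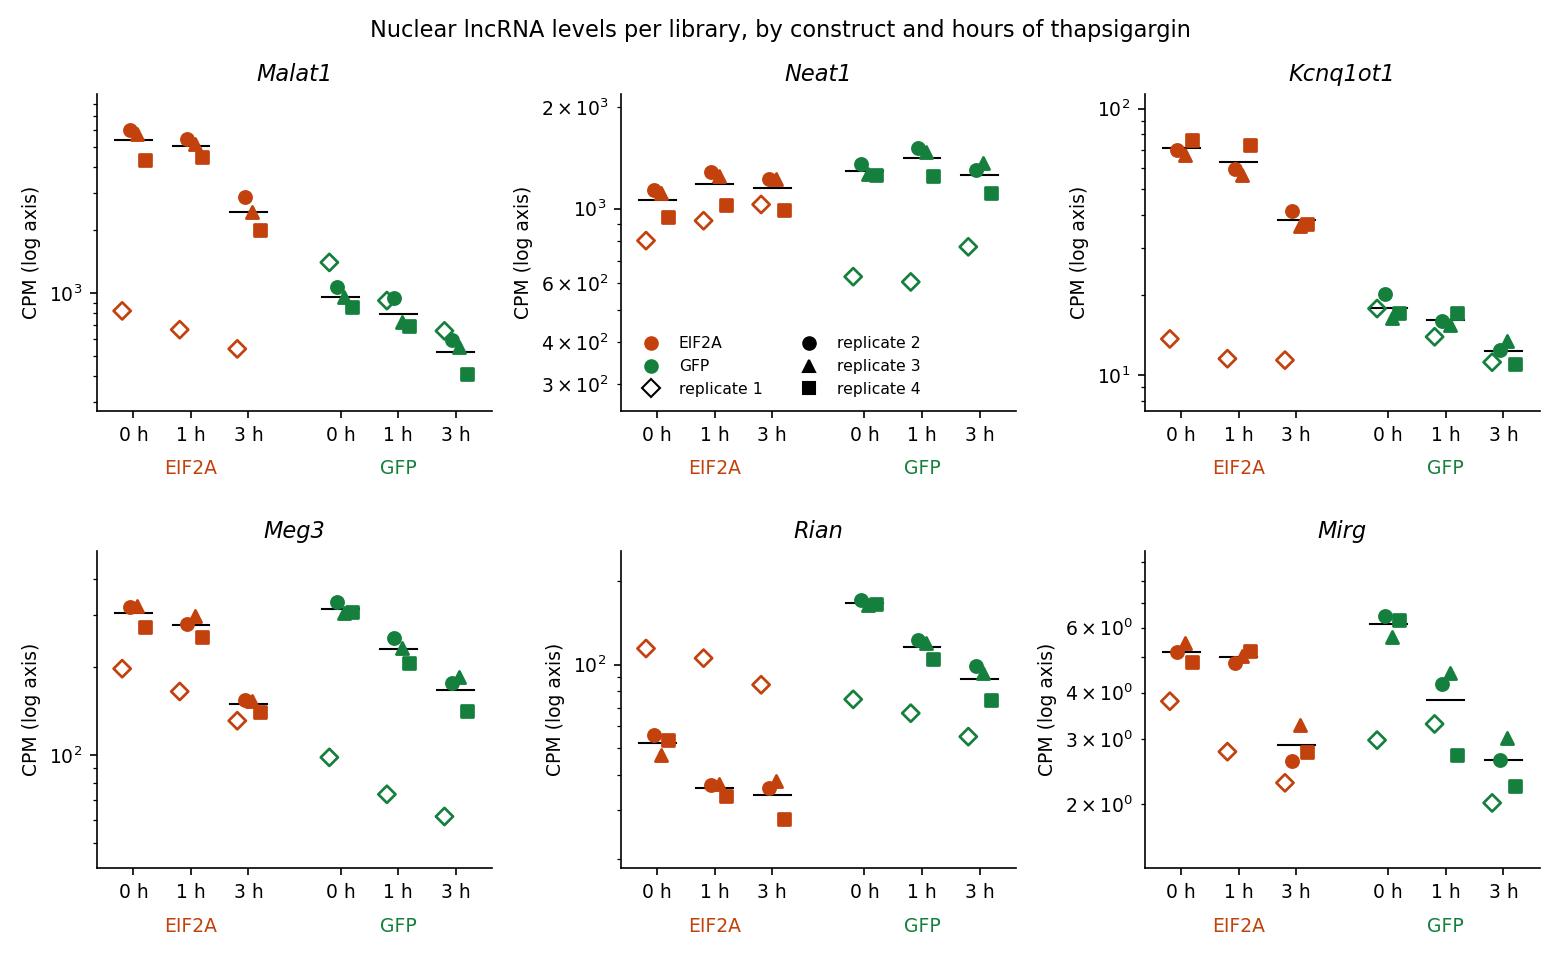
Level of each of the 6 RNAs in all 24 libraries, in CPM on a log axis, by thapsigargin time and construct. Hollow diamonds are replicate 1, filled points replicates 2 to 4 and bars the mean of replicates 2 to 4, and the Malat1 and Kcnq1ot1 bars are higher in EIF2A than in GFP at each time, those of Rian lower.

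Meg3 was the most abundant of the 3 RNAs of the Dlk1-Dio3 domain, and it was lower at 3 h than at 0 h in both constructs. At 0 h it stood at 197, 319.5, 324 and 273 CPM in EIF2A and 98.2, 333, 306 and 307 CPM in GFP. After 1 h the levels were 165, 280.2, 299 and 252 CPM in EIF2A and 73.4, 250.97, 231 and 206 CPM in GFP. The 3 h values were 131, 154, 153 and 141 CPM in EIF2A and 61.7, 176, 184 and 141 CPM in GFP. Replicate 1 was the lowest library of each group, and the GFP replicate 1 libraries were the lowest of all at their time. At 3 h each EIF2A library lay below each EIF2A library of 0 h.

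Rian, the snoRNA host downstream of Meg3, was lower in EIF2A than in GFP in replicates 2 to 4 at each time, which Meg3 was not. Its 0 h levels were 114, 55.9, 47.0 and 53.6 CPM in EIF2A and 74.9, 171, 164 and 166 CPM in GFP. After 1 h the levels were 105, 36.9, 37.2 and 33.5 CPM in EIF2A and 66.8, 122, 119 and 104 CPM in GFP. The 3 h values were 84.5, 36.0, 38.2 and 27.8 CPM in EIF2A and 55.0, 98.8, 93.5 and 74.6 CPM in GFP. In replicate 1 the order of the constructs was turned round at each time. The ratio of Rian to Meg3 counts in replicates 2 to 4 was 0.172 ± 0.0256 in EIF2A and 0.530 ± 0.0131 in GFP at 0 h (SD, n = 3). At 1 h it was 0.130 ± 0.00467 in EIF2A and 0.504 ± 0.0143 in GFP, and at 3 h 0.227 ± 0.0264 in EIF2A and 0.532 ± 0.0269 in GFP. The constructs were thus separate in this ratio at each time. In replicate 1 it was 0.579, 0.640 and 0.646 in EIF2A at 0, 1 and 3 h, and 0.763, 0.910 and 0.891 in GFP.

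Mirg, the miRNA host at the end of the domain, was the scarcest member, with 37 to 145 counts in a library. At 0 h it stood at 3.79, 5.16, 5.44 and 4.85 CPM in EIF2A and 2.98, 6.46, 5.65 and 6.28 CPM in GFP. After 1 h the levels were 2.77, 4.82, 5.02 and 5.20 CPM in EIF2A and 3.29, 4.23, 4.53 and 2.71 CPM in GFP. The 3 h values were 2.28, 2.61, 3.28 and 2.76 CPM in EIF2A and 2.01, 2.64, 3.01 and 2.23 CPM in GFP. Each EIF2A library of 3 h lay below each EIF2A library of 0 h, while the GFP libraries overlapped through replicate 1. The ratio of Mirg to Meg3 counts in replicates 2 to 4 was 0.0169 ± 7.97e-04 in EIF2A and 0.0194 ± 9.92e-04 in GFP at 0 h, and 0.0193 ± 0.00225 in EIF2A and 0.0157 ± 7.05e-04 in GFP at 3 h (SD, n = 3).

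Per kilobase of exon, which takes out gene length alone, the order over the 24 libraries was Malat1, Neat1, Meg3, Rian, Mirg and Kcnq1ot1. The libraries were selected for polyadenylated RNA, and these RNAs differ in their 3′ ends and A runs. The order is therefore one of counts and may not be that of RNA amounts. The Neat1 count sums a short and a long isoform and was divided by the length of the long one. The means were 300.2 ± 279 CPM per kilobase for Malat1, 53.9 ± 11.9 for Neat1, 11.7 ± 4.59 for Meg3, 4.53 ± 2.41 for Rian, 0.537 ± 0.188 for Mirg and 0.328 ± 0.249 for Kcnq1ot1 (SD over 24 libraries). Among neighbours in this order, the ranges over the libraries overlapped between Malat1 and Neat1, between Meg3 and Rian and between Mirg and Kcnq1ot1, and did not overlap between Neat1 and Meg3 or between Rian and Mirg. The order was the same with the longest transcript as the length.

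After 3 h of thapsigargin, Malat1, Meg3, Rian, Mirg and Kcnq1ot1 were below the same-numbered library of 0 h in all 4 replicates of both constructs, and Neat1 was not. The share of all genes with that pattern was not counted, and whether the numbers pair libraries was not settled. Without pairing by number, all 4 libraries of 3 h lay below all 4 of 0 h for Meg3 and Mirg in EIF2A and for Malat1 and Kcnq1ot1 in GFP. The other members overlapped, and the share of all genes without overlap was not counted either. Counts were fitted as 6 group means with edgeR's quasi-likelihood test and adjusted by Benjamini-Hochberg over the 13761 genes, with an adjusted p under 0.05 called, and each difference is a log2 fold change with its standard error (SE). Over group means Mirg fell, with -0.81 ± 0.25 in EIF2A (adjusted p = 0.0133) and -1.11 ± 0.25 in GFP (adjusted p = 0.00134). The EIF2A call was lost when all libraries of replicate 2, 3 or 4 were left out (adjusted p = 0.126, 0.0725 and 0.0712). It was the only member called over group means, a fit that called 36.2% of all genes in EIF2A and 33.0% in GFP. Replicate 1 widens the spread of each group, so the same fit is given without it. There 5 members were called in each construct, all lower, against 31.4% of all genes called lower in EIF2A and 30.8% in GFP.

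Without replicate 1, Malat1 was 2.20-fold lower at 3 h than at 0 h in EIF2A and 1.85-fold lower in GFP. Its log2 fold change was -1.14 ± 0.15 in EIF2A (adjusted p = 2.54e-06) and -0.89 ± 0.15 in GFP (adjusted p = 5.18e-05). Over all 4 replicates the values were -1.11 ± 0.54 in EIF2A and -0.95 ± 0.54 in GFP, with adjusted p-values of 0.119 and 0.193. Mean abundance in replicates 2 to 4 was 2439 ± 441 CPM at 3 h, against 5365 ± 897 at 0 h, in EIF2A, and 519.8 ± 97.4 at 3 h, against 962 ± 107 at 0 h, in GFP (SD, n = 3). The 3 h libraries of GFP lay below all its 0 h libraries, and those of EIF2A did so among replicates 2 to 4.

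The 3 RNAs of the Dlk1-Dio3 domain were lower together at 3 h. Without replicate 1 Meg3 fell, at -1.03 ± 0.10 in EIF2A and -0.92 ± 0.09 in GFP (edgeR adjusted p = 1.32e-08 and 6.54e-08). Rian fell too, at -0.62 ± 0.11 in EIF2A and -0.91 ± 0.10 in GFP, and so did Mirg, at -0.84 ± 0.18 in EIF2A and -1.23 ± 0.15 in GFP. Within replicates, the difference of Rian ran between -0.95 and -0.30 on the log2 scale in EIF2A and between -1.15 and -0.45 in GFP. Kcnq1ot1 fell, at -0.90 ± 0.10 in EIF2A (edgeR adjusted p = 9.63e-08) and -0.55 ± 0.11 in GFP (adjusted p = 2.52e-04). Over all 4 replicates Meg3, Rian and Kcnq1ot1 gave -0.94, -0.54 and -0.85 in EIF2A and -0.89, -0.84 and -0.57 in GFP, none of them called.

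Neat1 was not called at 3 h in either construct, with or without replicate 1. Over all 4 replicates it gave 0.16 ± 0.25 in EIF2A and 0.01 ± 0.25 in GFP, and the GFP value turned to -0.026 with median-of-ratios size factors, so no direction is given for it. In replicate 1 Neat1 was 0.36 higher on the log2 scale in EIF2A, against 0.08 to 0.14 in replicates 2 to 4. Without replicate 1 the EIF2A value was 0.11 ± 0.10 (edgeR adjusted p = 0.371) and the GFP value -0.04 ± 0.10 (adjusted p = 0.734).

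At 1 h of thapsigargin the differences were smaller. Over group means no member was called in either construct by edgeR's quasi-likelihood test, where 10.5% of all genes were called in EIF2A and 8.18% in GFP. At an unadjusted p under 0.05 there were 0 members in EIF2A and 1 in GFP. How many of all genes passed that threshold was not counted. DESeq2 called 0 members in each construct, where it called 1910 of 12073 genes in EIF2A and 1564 of 12073 in GFP. Without replicate 1, where 42.0% of genes were called in EIF2A and 39.4% in GFP, Rian fell in EIF2A, with -0.54 ± 0.11 (edgeR adjusted p = 7.66e-04). In GFP, Meg3, Rian and Mirg fell, with -0.46 ± 0.09, -0.53 ± 0.10 and -0.68 ± 0.15 (edgeR adjusted p = 5.94e-04, 2.62e-04 and 9.40e-04). Malat1 gave -0.09 ± 0.15 in EIF2A and -0.29 ± 0.15 in GFP and was not called. Against the same-numbered library of 0 h, Rian, Meg3 and Kcnq1ot1 were each lower at 1 h in all 4 replicates of both constructs. How common this was among all genes was not counted.

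**Figure D2:**
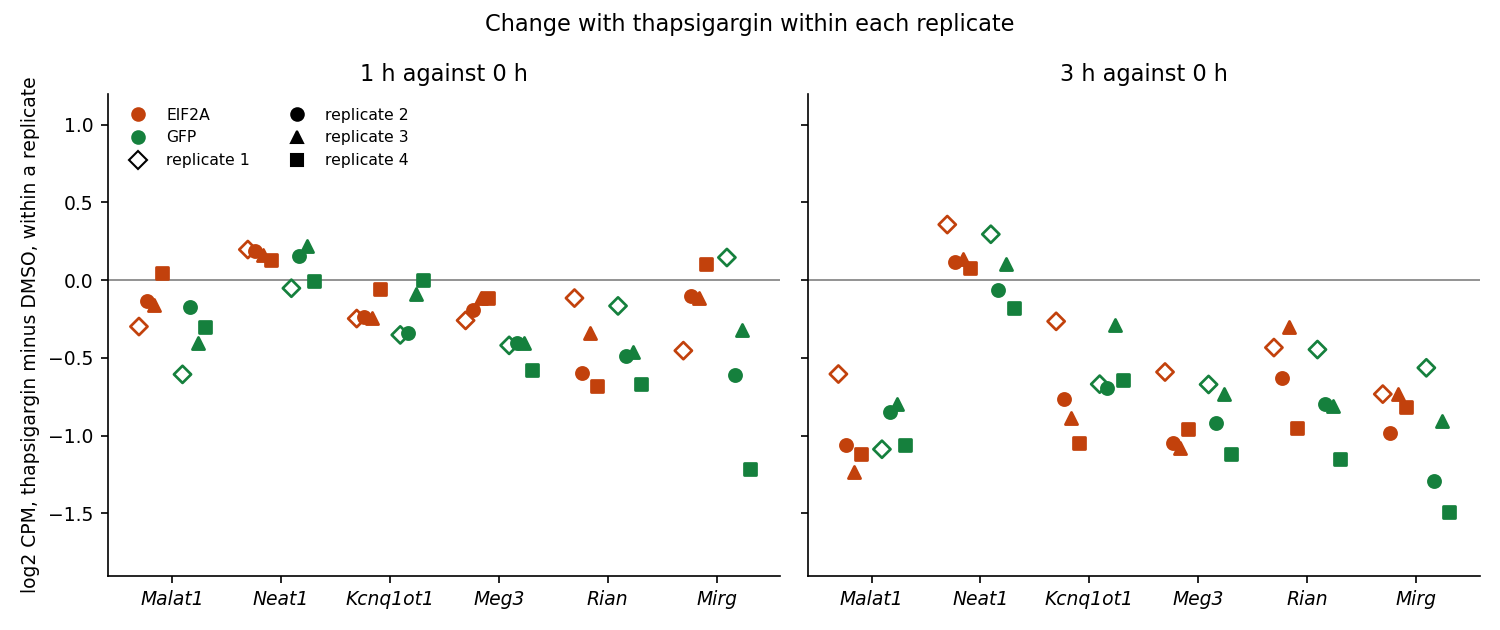
Difference in log2 CPM of each RNA at 1 h and at 3 h against 0 h within each replicate number, for EIF2A and GFP. At 3 h the points of Malat1, Meg3, Rian, Mirg and Kcnq1ot1 are below 0 in all 4 replicates of both constructs, and those of Neat1 lie around or above 0.

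No member's response was called different between the constructs, which does not show that the responses are alike. The interaction, that is the time response in EIF2A less the time response in GFP, had 0 members called at 1 h and at 3 h by edgeR over group means (0.0% and 0.0% of all genes), and 0 members had an unadjusted p under 0.05 at either time. DESeq2 called 0 members as well, and 0.0% of all genes at either time. Without replicate 1 the count of members called by edgeR was 0 again, where 0.816% of genes were called at 1 h and 4.12% at 3 h. At an unadjusted p under 0.05 there were then 2 members at 1 h and 1 at 3 h. The share of all genes at that threshold was not counted. For Malat1 the interaction at 3 h was -0.16 ± 0.76 over all replicates and -0.25 ± 0.22 without replicate 1, for Rian 0.30 ± 0.56 and 0.29 ± 0.15, and for Kcnq1ot1 -0.27 ± 0.64 and -0.35 ± 0.15.

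Between constructs, Malat1 and Kcnq1ot1 were higher and Rian lower in EIF2A in replicates 2 to 4, at all 3 times. Over all 4 replicates, edgeR's quasi-likelihood test called 0 members at 0, 1 and 3 h, with 0.0218%, 1.02% and 0.0% of all genes called. DESeq2 called 2, 2 and 0 members, among 3.65%, 14.7% and 1.2% of all genes. By edgeR at an unadjusted p under 0.05 there were 3, 3 and 2 members, and the share of all genes at that threshold was not counted. The edgeR differences of Malat1 at the 3 times, in order, were 1.98 ± 0.55, 2.26 ± 0.56 and 1.82 ± 0.55 (adjusted p = 0.101, 0.0501 and 0.176). Kcnq1ot1 gave 1.66 ± 0.46, 1.68 ± 0.46 and 1.39 ± 0.46, and Rian -1.09 ± 0.40, -0.95 ± 0.40 and -0.79 ± 0.40. These fits include the reversed replicate 1. Malat1 passed the threshold at 1 h when the EIF2A library (adjusted p = 0.00134) or the GFP library (adjusted p = 0.0476) of replicate 1 alone was left out.

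Without replicate 1, 4 members were called at 0 h, 6 at 1 h and 3 at 3 h, and 64.8%, 70.0% and 67.6% of all genes were called. Calls were thus common in this comparison, and nothing is read from the members' count. Malat1 rose 5.57-fold in EIF2A over GFP at 0 h, 6.36-fold at 1 h and 4.69-fold at 3 h (edgeR adjusted p = 1.28e-10, 3.91e-11 and 4.70e-10). Kcnq1ot1 rose 3.96-, 3.90- and 3.11-fold at 0, 1 and 3 h, and Rian was 3.20-, 3.21- and 2.61-fold lower. In replicate 1 the difference within the pair was -0.77, -0.46 and -0.29 on the log2 scale for Malat1 at 0, 1 and 3 h. For Kcnq1ot1 it was -0.38, -0.27 and 0.03, and for Rian 0.61, 0.66 and 0.62. Replicate 1 turned the sign of Malat1 and Rian at each time, at a smaller size than in replicates 2 to 4.

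Neat1, Meg3 and Mirg differed little between constructs. Without replicate 1 Neat1 gave -0.28 ± 0.10 at 0 h, -0.25 ± 0.10 at 1 h and -0.13 ± 0.10 at 3 h, called at 0 and 1 h. Over all replicates its sign turned when a trend of the fold change on gene length was removed, to 0.049, 0.16 and 0.18 at the 3 times. Meg3 gave -0.05 ± 0.09, 0.27 ± 0.09 and -0.16 ± 0.09, and Mirg -0.25 ± 0.15, 0.39 ± 0.16 and 0.14 ± 0.18, both called at 1 h alone. In replicate 1 Meg3 was 1.01, 1.17 and 1.09 higher on the log2 scale in the library labelled EIF2A. The ratio of Malat1 to Neat1 counts in replicates 2 to 4 was 5.02 ± 0.364 in EIF2A and 0.742 ± 0.0547 in GFP at 0 h, and 2.12 ± 0.1997 in EIF2A and 0.411 ± 0.0437 in GFP at 3 h (SD, n = 3).

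**Figure D3:**
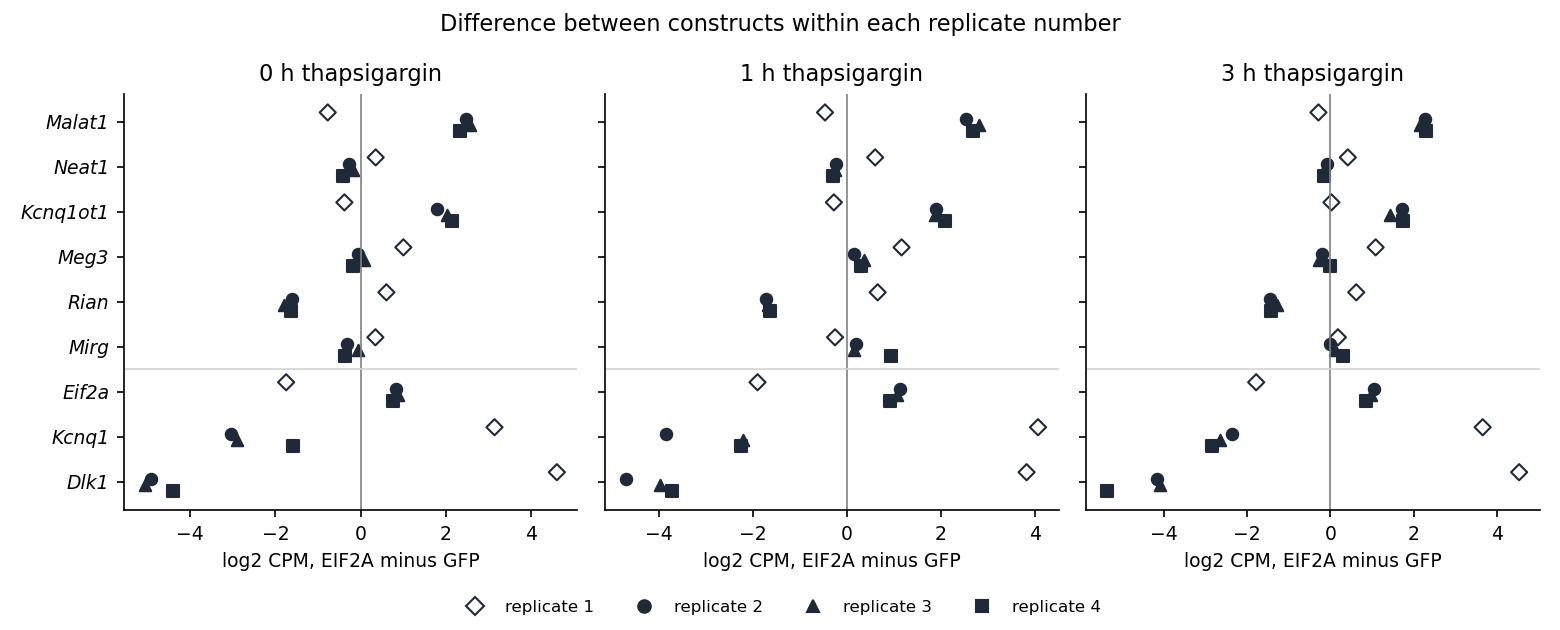
Difference in log2 CPM, EIF2A minus GFP, within each replicate number at 0, 1 and 3 h, for the 6 RNAs and for Eif2a, Kcnq1 and Dlk1. Replicates 2 to 4 lie together, with Malat1 and Kcnq1ot1 above 0 and Rian, Kcnq1 and Dlk1 below it, and replicate 1 (hollow) lies on the other side of 0 for Malat1, Rian, Eif2a, Kcnq1 and Dlk1.

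The share of counts on the line named no_feature, assigned to no gene, was highest in the EIF2A libraries of replicates 2 to 4. Malat1 and Kcnq1ot1 were highest there too, but the share did not follow them at each time. No counting program or annotation is named, so whether this line holds reads from inside genes is not known. As a percent of all counts of the table, the 2 lines that name no gene included, the share was 17.9, 17.2 and 17.2 in EIF2A replicates 2 to 4 at 0 h, against 12.99, 12.5 and 12.4 in GFP. At 1 h it was 15.2, 15.4 and 14.8 in EIF2A and 11.4, 11.1 and 10.9 in GFP. At 3 h it was 14.9, 14.4 and 13.3 in EIF2A and 12.5, 11.7 and 11.1 in GFP. In GFP replicates 2 to 4 the share was thus higher at 3 h than at 1 h, while Malat1 and Kcnq1ot1 were lower. In replicate 1 the share ran from 11.1 to 12.04 in EIF2A and from 10.7 to 11.8 in GFP, so the libraries with the highest share were those with the highest Malat1 and Kcnq1ot1. Its part in the levels of these RNAs was not tested.

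Kcnq1, the potassium channel gene around Kcnq1ot1, went the other way between constructs, and calls on both sides were common among its neighbours. Kcnq1 stood at 0.279 to 1.24 CPM in the EIF2A libraries and 3.17 to 4.70 CPM in the GFP libraries of replicates 2 to 4, and at 3.23 to 4.06 and 0.242 to 0.365 CPM in the libraries of replicate 1 labelled EIF2A and GFP. It was thus low where Eif2a was high in both sets of libraries. Of 8 tested genes within 250 kb of Kcnq1ot1, 2 were higher and 5 lower in EIF2A at 0 h without replicate 1, where 31.9% of all genes were higher and 32.9% lower, calls that the fit over all 4 replicates did not make. The log2 fold change there was -2.40 for Kcnq1, -1.51 for the cell cycle inhibitor gene Cdkn1c, -2.95 for Ascl2, a transcription factor gene of the domain, and -2.71 for Cd81, a tetraspanin gene (edgeR adjusted p = 8.21e-07, 1.14e-05, 7.28e-11 and 2.22e-17). Trpm5, a cation channel gene, and Tssc4 rose by 0.50 and 0.45. The ratio of Kcnq1ot1 to Kcnq1 counts in replicates 2 to 4 was 121 ± 53.2 in EIF2A and 4.96 ± 0.596 in GFP at 0 h (SD, n = 3).

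Dlk1, the paternally expressed gene at the other end of the domain from Mirg, differed between constructs in the direction of Rian and by more. At 0 h it stood at 13.4, 0.287, 0.286 and 0.516 CPM in EIF2A and 0.547, 8.73, 9.63 and 10.9 CPM in GFP (replicates 1 to 4). The 3 h values were 10.0, 0.474, 0.526 and 0.240 CPM in EIF2A and 0.436, 8.41, 8.93 and 9.87 CPM in GFP. Over all times Dlk1 stood at 0.240 to 0.933 CPM in EIF2A replicates 2 to 4 and GFP replicate 1, the libraries with the lower Rian level of each pair, and at 8.41 to 14.3 CPM in the others. Without replicate 1 Dlk1 fell in EIF2A against GFP, with -4.76 at 0 h (edgeR adjusted p = 3.84e-12), -4.06 at 1 h and -4.43 at 3 h, and over all 4 replicates it was not called. The duct cell marker Spp1 moved with Rian and Dlk1, while the other duct markers Krt19, Sox9 and Cftr had at most 10 counts in a library and were at 0 in 9, 8 and 11 of the 24. The 4 genes summed to 22.1 to 36.6 CPM in EIF2A and 464 to 703 CPM in GFP in replicates 2 to 4, and to 431 to 545 CPM in EIF2A and 13.3 to 16.3 CPM in GFP in replicate 1, and the part of such cells in the Rian levels was not tested.

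**Figure D4:**
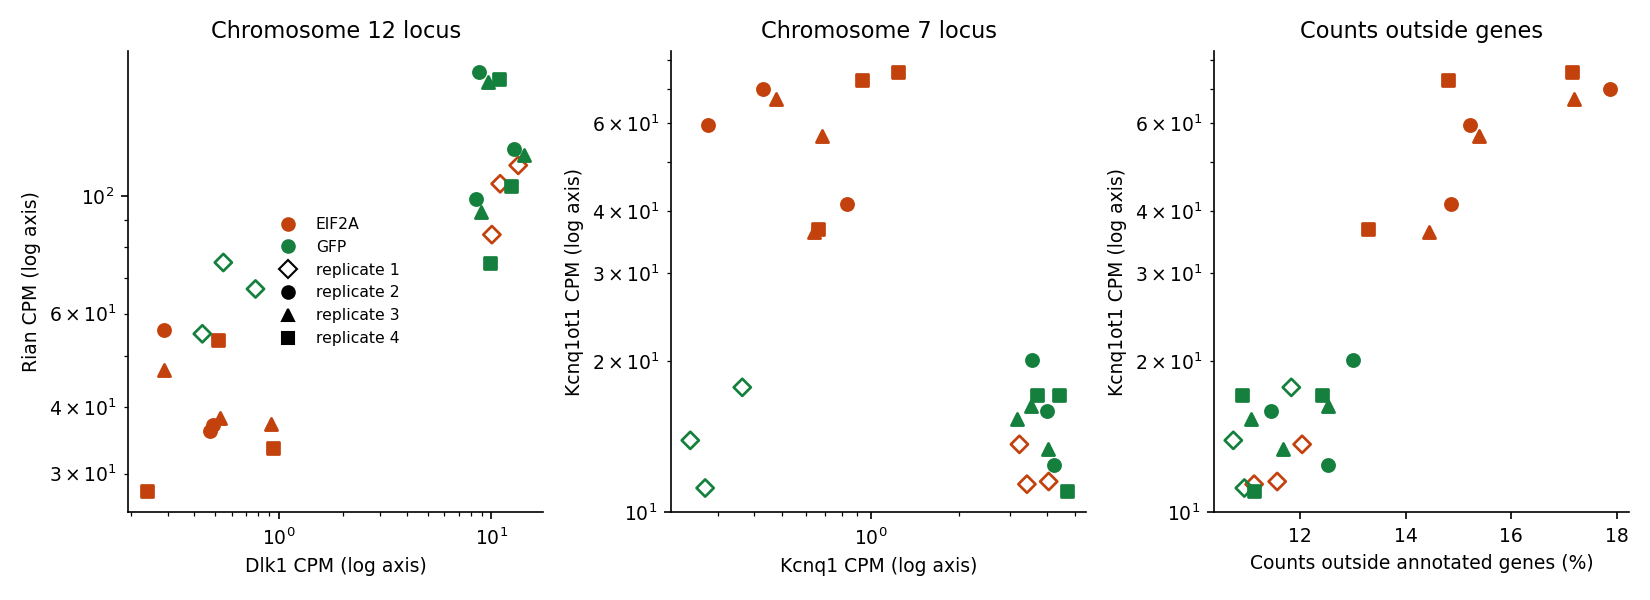
Levels in the 24 libraries, in CPM on log axes, of Dlk1 against Rian and of Kcnq1 against Kcnq1ot1, and the percent of counts on the no_feature line against Kcnq1ot1. The axis names that line counts outside annotated genes, though it may hold reads from inside genes. Markers give construct and replicate. The libraries of EIF2A replicates 2 to 4 have the highest Kcnq1ot1 and a no_feature share between 13.3% and 17.9%, while low Dlk1 and Kcnq1 are found in them and in GFP replicate 1 alike.

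Likeness to other genes was measured as the root mean square difference of mean-centred log2 CPM over the 24 libraries, among 10908 genes of at least 5 CPM, where 0 is an identical pattern. The gene most like Malat1 was Kcnq1ot1, at 0.360, followed by Pou2f2 at 0.361 and Oaf at 0.478. For Kcnq1ot1 the nearest were F13a1 at 0.223, Pou2f2 at 0.276 and A930013F10Rik at 0.337. Rian was nearest to Slc12a2 at 0.203, Rap2a at 0.210 and Il1r1 at 0.234, and no other member was among its 3. Meg3 was nearest to Tmem229b (0.351), Apba2 (0.354) and Adora1 (0.360), Mirg to Pcyox1l (0.223), Lhfpl4 (0.252) and Camk2n1 (0.260), and Neat1 to Tmem215 (0.177), Cish (0.179) and Sap30 (0.181). Between members, Malat1 and Kcnq1ot1 were the closest pair, Meg3 and Mirg came next at 0.380, and Malat1 and Rian were farthest apart at 1.89. The libraries share depth and replicate structure, so these are descriptions.

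The genes whose products work with these RNAs were counted in lists at 3 h against 0 h over group means, where 19.6% of all genes were higher and 16.6% lower in EIF2A and 18.4% and 14.6% in GFP. Paraspeckle protein genes, the partners of Neat1, had 8 of 21 higher and 1 lower in EIF2A, and 8 higher and 2 lower in GFP, with median log2 fold changes of 0.16 and 0.15, beside -0.01 and -0.00 over all genes. The RNA-binding protein gene Taf15 rose by 1.04 ± 0.13 in EIF2A and 1.07 ± 0.13 in GFP, and Ewsr1, also an RNA-binding protein gene, by 0.56 in EIF2A and 0.49 in GFP. Genes of nuclear speckle and SR proteins, the company of Malat1, had 9 of 18 higher and 1 lower in EIF2A and 8 higher and 1 lower in GFP. Clk4, a kinase of SR proteins, rose by 1.34 ± 0.16 in EIF2A and 1.44 ± 0.16 in GFP, and the splicing regulator Tra2b by 0.59 and 0.66.

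Genes for processing and binding the ends of Malat1 and Neat1 had 8 of 15 higher and 1 lower in EIF2A and 9 higher and 1 lower in GFP. Rpp38, a subunit of RNase P, rose by 1.64 ± 0.23 in EIF2A and 1.37 ± 0.23 in GFP, and Mettl3, which encodes an RNA methyltransferase that acts on Malat1, by 1.36 ± 0.14 and 1.13 ± 0.14. Pop4, another RNase P subunit, fell, at -0.37 in EIF2A and -0.28 in GFP. The 2 RNase P genes named thus moved in opposite directions. Of the RNAs of protein-coding genes known to be retained in the nucleus, 1 of 4 was lower in each construct, Slc7a2, with -0.63 in EIF2A and -0.75 in GFP.

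Other long noncoding RNAs went in both directions, with 6 of 16 higher and 3 lower in EIF2A and 4 higher and 4 lower in GFP. The snoRNA host Snhg1 rose by 2.29 ± 0.16 in EIF2A and 2.12 ± 0.16 in GFP, Gas5, another snoRNA host, by 0.84 and 0.59, and Pvt1, the transcript beside Myc, by 1.24 and 1.26. Rian, itself a snoRNA host, gave -0.54 in EIF2A and -0.84 in GFP in the same fit. The list had a median of -0.24 in EIF2A and 0.19 in GFP.

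In and around the imprinted domains few coding genes were called at 3 h. The only tested coding gene within 250 kb of Meg3, Rian or Mirg was Dlk1, so the first list below takes in genes of the flanks. Of 5 tested protein-coding genes listed for the Dlk1-Dio3 domain and its flanks, Wdr25 rose in GFP by 0.65 ± 0.17 and gave 0.22 ± 0.17 in EIF2A, where it was not called. Without replicate 1, 0 of the 5 were higher and 1 lower in EIF2A, and 1 higher and 1 lower in GFP. Of 11 tested genes of the Kcnq1 domain, 1 rose in EIF2A, and 1 rose and 1 fell in GFP. The gene that rose was Cars, a tRNA synthetase gene, by 1.19 ± 0.15 in EIF2A and 1.17 ± 0.15 in GFP, and the one that fell in GFP was Trpm5, at -0.41. Factors of imprinting and DNA methylation had 2 of 10 higher and 1 lower in EIF2A and 2 higher and 2 lower in GFP, with Dnmt1, the maintenance methyltransferase, and Uhrf1, its guide, higher by 0.60 and 0.82 in EIF2A and 0.53 and 0.62 in GFP. The repressor complexes PRC2 and G9a, which Kcnq1ot1 and Meg3 are known to bind, had 4 of 9 genes higher in EIF2A and 2 in GFP. Ezh2 and Eed, core PRC2 subunits, rose by 0.92 and 0.87 in EIF2A and 0.84 and 0.82 in GFP.

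As a check of the treatment, 7 of 8 stress response genes rose at 3 h in each construct, with a median of 2.13 in EIF2A and 2.20 in GFP. Chac1, which encodes an enzyme that degrades glutathione, rose by 2.73 in EIF2A and 2.97 in GFP, and the sestrin gene Sesn2 by 1.84 in EIF2A and 2.03 in GFP.

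Between constructs at 0 h the lists were counted without replicate 1, since over all 4 replicates the fit called 3 of the 13761 genes. Without it, where 31.9% of all genes were higher and 32.9% lower, 5 of 21 paraspeckle genes were higher and 10 lower, 5 of 18 speckle genes higher and 5 lower, and 7 of 15 end-processing genes higher and 6 lower. Son, a core protein gene of nuclear speckles, was then 0.69 ± 0.05 (adjusted p = 3.21e-10) and Pnn, another speckle protein gene, -0.52 ± 0.10. Of 5 coding genes listed for the Dlk1-Dio3 domain and its flanks 3 were lower, of 11 Kcnq1 domain genes 5 were higher and 5 lower, and of 16 other long noncoding RNAs 4 were higher and 5 lower.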

How the data were processed

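The deposited table holds raw gene counts that are not normalized, made by the authors from polyadenylated RNA extracted with a column kit and made into stranded mRNA libraries, per the labels' protocols. Bcl2fastq, STAR and mm10 are named in the submitters' processing notes. No counting program, annotation or strand setting was found in the sources. The members and all gene lists were chosen with earlier results of these data known. The 2 lines that name no gene, 10.7% to 17.9% and 0.518% to 0.592% of a library, were left out of library sizes and tests. Counts were scaled by TMM and fitted with edgeR 4.0.16 in R 4.3.3 (filter: minimum count 10, minimum total 15; robust; 6 group means; 18 residual degrees of freedom). CPM use TMM-scaled library sizes. No label mentions molecular identifiers, so reads may not be independent molecules.

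Replicate numbers were not taken to pair libraries, and fits with the replicate as a block are alternatives. Named genes were the members, the 2 smallest p-values per list and comparison, the 3 genes most like each member, and neighbours within 250 kb called at 3 h in both constructs or between constructs at all 3 times. 1 gene that the rule names is not reported here. Alternatives were other scaling, DESeq2 1.42.0, other filters, a lowess trend on exonic length (96.3% of genes had one), the block and leaving out each library. Transcripts and coordinates are from GENCODE M21 on GRCm38, promoters and miRNAs from RefSeq. The fit was tested on simulated data.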

Additional observations from a re-analysis of the deposited data

Results flagged for a closer look

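In each group of 4 libraries the highest and the lowest value were set against the other 3. A library is reported where its gap to the nearest other took more of the group's range than Dixon's limit for 4 values allows, a limit that chance passes in about 5% of groups. Of 42 groups of values, 36 of member levels and 6 of the no_feature share, 10 passed, and in all 10 the library was replicate 1, the one in which Eif2a went against the labels.

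Neat1 stood at 627 CPM in GFP replicate 1 at 0 h, against 1257 to 1360.1 CPM in the other 3 libraries. Meg3 stood at 98.2 CPM in the same library, against 306 to 333 CPM, and Rian at 74.9 CPM, against 164 to 171 CPM, so 3 RNAs were low in it. Rian was high in EIF2A replicate 1, at 114 CPM at 0 h and 105 CPM at 1 h. Kcnq1ot1 was low in EIF2A replicate 1, at 13.6 CPM at 0 h and 11.4 CPM at 3 h, and Mirg was low there at 1 h, at 2.77 CPM. The no_feature share was low in EIF2A replicate 1, at 12.04% at 0 h and 11.6% at 1 h.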

How the results depend on the processing

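The calls rested on how the libraries of replicate 1 were handled. Deviations of same-numbered libraries from their group means correlated across genes at 0.510 to 0.933 between times (16 pairs) and at -0.663 to -0.159 between constructs (12 pairs), with the reversed replicate 1 included. Among replicates 2 to 4 the correlations were -0.0264 to 0.220 between times and -0.0176 to 0.313 between constructs, and of the 3 libraries of the other group the same-numbered one correlated highest in 9 of 12 cases between times and 7 of 9 between constructs. The same-numbered library was thus most often the closest, though no correlation passed 0.313. Whether the numbers pair libraries was not settled by these values, and the replicate block is given here alone, as an alternative. Leaving out 1 library or replicate number at a time, genes called at 1 h ran from 139 to 5762 in EIF2A and from 91 to 5414 in GFP, at 3 h from 2736 to 8598 and from 2348 to 8648, between constructs at 0, 1 and 3 h from 0 to 8904, from 0 to 9609 and from 0 to 9277, and in the interaction from 0 to 112 at 1 h and from 0 to 566 at 3 h. Members called ran from 0 to 1 in EIF2A and 0 to 3 in GFP at 1 h, 0 to 5 and 1 to 5 at 3 h, and 0 to 4, 0 to 6 and 0 to 3 between constructs. The highest of these counts all come with replicate 1 left out.

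These omissions turned the sign of some log2 values, which ran in EIF2A at 1 h from -0.45 to 0.25 for Malat1, -0.92 to 0.036 for Rian, -0.21 to 0.062 for Mirg and -0.51 to 0.16 for Kcnq1ot1. Neat1 ran from -0.096 to 0.33 in GFP at 1 h and -0.19 to 0.16 at 3 h, and between constructs from -0.34 to 0.012 at 1 h and -0.17 to 0.076 at 3 h. Meg3 ran between constructs from -0.18 to 0.23 at 0 h and -0.21 to 0.19 at 3 h. In the interaction at 1 h the ranges were -0.064 to 0.63 for Malat1, -0.16 to 0.26 for Neat1, -0.44 to 0.52 for Rian and -0.31 to 0.35 for Kcnq1ot1, and at 3 h -0.50 to 0.16 for Malat1, -0.30 to 0.22 for Meg3, -0.16 to 0.68 for Rian and -0.60 to 0.0055 for Kcnq1ot1.

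With the replicate block, 6232 genes were called in EIF2A and 6128 in GFP at 1 h, 9105 and 9231 at 3 h, 1333, 2891 and 1054 between constructs at 0, 1 and 3 h, and 1 and 2 in the interaction at 1 and 3 h. With the block and the length trend removed, these counts were 6023 and 5878, 8814 and 8907, 980, 1923 and 720, and 1 and 3. Members called with the block were 2 and 4 at 1 h, 6 and 5 at 3 h, and 1 at 0 h and 2 at 1 h between constructs. With the length trend removed as well they were 2 and 4, 5 and 5, and 1 and 3.

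Between constructs, genes called over all replicates were 5 at 0 h and 2 at 3 h with library totals, 455, 1662 and 154 with DESeq2, 1 at 0 h and 1 at 1 h with no filter, 6 and 519 with a minimum count of 50, and 21 at 1 h with the length trend removed. Members called at 3 h were 2 in EIF2A and 2 in GFP with DESeq2, which called 35.2% and 34.2% of all genes. They were 2 and 2 with the length trend removed, which called 4887 and 4531 genes. In EIF2A they were 2 with the minimum of 50, which called 4896 genes, and 2 with size factors, which called 4951 genes. Between constructs the members called were 2 at 0 h and 2 at 1 h with DESeq2, among 455 and 1662 genes. At 1 h they were 2 with the minimum of 50, among 519 genes, and 1 with size factors, among 180 genes.

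Signs also turned for values not called by edgeR over group means. Neat1 in GFP at 3 h was -0.026 with size factors and -0.026 with DESeq2. Between constructs at 0, 1 and 3 h it was 0.049, 0.16 and 0.18 with the length trend removed, 0.069, 0.19 and 0.20 with the block as well, and 0.019 at 3 h with the block alone. Meg3 was -0.0071 and -0.0094 at 0 and 3 h with library totals. Kcnq1ot1 in EIF2A at 1 h was 0.12 with the length trend removed and 0.069 with the block as well, and its 1 h interaction was -0.0029 with library totals. The cause was not tested in any of these cases. Of the other values for levels, single genes and lists, 861 kept their direction and side of the threshold, or for counts stayed within 1.5 times, 77 passed it and 1 no longer did. Library totals shifted the median of all genes at 3 h by 0.15 in EIF2A and 0.12 in GFP. Depth limits Mirg most, at 37 to 145 counts in a library.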

Other observations

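Genes around Malat1 and Neat1 on chromosome 19 moved in both directions at 3 h against 0 h. Of 26 tested neighbours within 250 kb, 6 were higher and 7 lower in EIF2A and 5 higher and 1 lower in GFP by edgeR over group means, where 19.6% of all genes were higher and 16.6% lower in EIF2A and 18.4% and 14.6% in GFP. Without replicate 1, 9 neighbours were higher and 11 lower in each construct, where 31.2% of all genes were higher and 31.4% lower in EIF2A and 32.2% and 30.8% in GFP. Called in both constructs were Rela, an NF-κB subunit gene (log2 fold change 0.74 ± 0.13 in EIF2A and 0.70 ± 0.13 in GFP), Kat5, a histone acetyltransferase gene (0.66 and 0.65), Dpf2, a chromatin remodelling gene (0.48 and 0.40), Zfpl1 (0.71 and 0.66) and Cdca5, a cohesin regulator gene (0.34 and 0.53), all higher, and Rnaseh2c, a ribonuclease H subunit gene (-1.09 ± 0.16 in EIF2A and -0.99 ± 0.16 in GFP), which was lower, as Malat1 was.

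The small RNA genes that the count table lists inside the host loci had almost no counts. Of 2 such rows inside Meg3 none had a count, of 7 inside Rian 5 had one and of 14 inside Mirg 4 had one, with at most 3 counts in any library, so nothing can be said of the mature miRNAs and snoRNAs from these libraries.

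Markers of other cell types than duct cells moved with replicate and construct in part. The 5 macrophage markers summed to 9.48 to 38.4 CPM in EIF2A and 26.8 to 68.5 CPM in GFP in replicates 2 to 4, and to 55.1 to 97.3 and 19.8 to 38.7 CPM in replicate 1. The 5 alpha markers summed to 648 to 1417 CPM in EIF2A and 949 to 1817 CPM in GFP, and to 1763 to 2488 and 884 to 1448 CPM in replicate 1. Delta and PP, acinar and endothelial markers summed to at most 2.21, 1.09 and 3.23 CPM in a library and mesenchymal markers to at most 15.3 CPM, and the acinar genes Prss1 and Amy2a5 were at 0 in all 24. Their part in the levels of the 6 RNAs was not tested.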
